A study of Homo sapiens with 9 samples.

Results

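The apolipoprotein L family was followed by RNAseq in an established human line of clear cell renal cell carcinoma. The line has defective VHL and constitutive HIF2α expression and, by the study's description, an inactivating mutation of HIF1α. Its members here are APOL1, APOL2, APOL3, APOL4 and APOL6, which are 5 of the 58735 genes counted. They were chosen by name, as a family in 1 cluster of chromosome 22, with their counts and fold changes in all groups already known, and APOL1 is also among the genes the study picked from these libraries for its heatmap. Their values are therefore given as a description, without a p for any member.

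Libraries of 3 groups with 3 replicates each were sequenced, all grown in normoxia for 48 h. Untreated cells were the parental line (genotype WT, labelled control), for which no vehicle is named. PT2385-treated cells were the same WT cells with 10 μM of the HIF2α antagonist PT2385 for 48 h. Knockout cells (KO) were cells of the same line, labelled with the genotype hif2a KO, and had no drug. The paper describes silencing of HIF2α by siRNA and no knockout line. Its RNAseq methods compare only WT cells with and without PT2385. How the knockout line was made, and whether it is 1 clone, is not given in the sources used here, so effects of its making or later culture cannot be told apart from those of HIF2α loss. No label says that replicates came from separate cultures, so p-values measure the spread between these samples.

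Apolipoproteins L differ from the lipid carriers of plasma in that most of them act inside cells. APOL1 is the exception with a secretory signal. It circulates on high-density lipoprotein as the factor that lyses trypanosomes, and coding variants of it are known to raise the risk of kidney disease. APOL2 and APOL3 are intracellular proteins that associate with membranes, and APOL6 was described as a protein with a BH3-like motif that can promote cell death. Several family members are known to be induced by interferons. HIF2α, encoded by EPAS1, is the transcription factor that drives hypoxia-type expression in VHL-deficient kidney cancer.

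Between 11881000 and 14730081 reads were counted per library. EPAS1 had 255.8 ± 20.0 CPM in untreated cells, 238 ± 16.8 with PT2385 and 22.1 ± 2.52 in KO (SD, n = 3), where CPM are counts-per-million values after edgeR's TMM scaling over the 9 libraries. The KO libraries thus held 8.63% of the untreated EPAS1 level. Of the genes listed as markers of renal epithelium or clear cell carcinoma, PAX8 and VIM were counted in every library, with at least 6975 reads for PAX8. CA9 and LRP2 of the same list had 0 reads in all libraries. Of 7 markers of leukocytes, endothelium and fibroblasts, CD3E, PECAM1 and DCN had 0 reads, and PTPRC, CD68 and CDH5 at most 2. Their summed counts, nearly all from COL1A1, ran from 57 to 77 in untreated, 87 to 104 in PT2385-treated and 26 to 48 in KO libraries, and the part of this difference in the results was not tested.

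The members lie on chromosome 22 of GRCh38, in a span of 619.1 kb from 35648446 to 36267530 that also holds APOL5 and RBFOX2. APOL6 (ENSG00000221963, 35648446 to 35668404, plus strand) stands at one end. APOL3 (ENSG00000128284, 36140329 to 36166177), APOL4 (ENSG00000100336, 36189124 to 36204840) and APOL2 (ENSG00000128335, 36226209 to 36239954) follow on the minus strand. APOL1 (ENSG00000100342, 36253071 to 36267530, plus strand) stands at the other end, and APOL2 and APOL1 point away from each other across 13116 bases. No member overlapped another annotated gene. The members are paralogs, so their reads could in principle be confused. Of all windows of 75 bases in their annotated transcripts, at most 0.901% (APOL1) also occurred in a transcript of another gene, and 0 occurred in another member. For windows of 50 bases these shares were at most 5.37% (APOL4, with 4.16% for APOL1) and at most 0.381% (APOL1). Only exact matches were counted, so confusion of reads that differ by a few bases was not tested.

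APOL1 was the most abundant member in untreated cells. Its counts were 8645, 8781 and 10031 in the untreated libraries, 1698, 1848 and 2214 with PT2385 and 1463, 1773 and 1810 in KO. All 3 untreated libraries lay far above the other 6, and each KO library lay below each PT2385-treated one after scaling. In CPM the level was 762 ± 66.4 in untreated cells, 143 ± 9.92 with PT2385 and 120.0 ± 6.22 in KO (SD, n = 3). APOL1 thus kept 18.8% of its untreated level with PT2385 and 15.8% in KO. Its rank by mean level among genes with counts moved from the 99.7th percentile in untreated cells to the 94.6th with PT2385. These are bulk libraries, in which fewer expressing cells and less RNA per cell cannot be told apart.

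APOL2, the closest neighbour of APOL1, was counted at 3096, 3311 and 3720 reads in untreated cells, at 1242, 1437 and 1540 with PT2385 and at 1463, 1636 and 1918 in KO. The untreated libraries were again the highest without overlap. The level was 281 ± 26.8 CPM in untreated cells, 105 ± 4.21 with PT2385 and 119 ± 10.8 in KO (SD, n = 3), so 37.4% and 42.5% were left. Unlike APOL1, APOL2 had its lowest mean with PT2385.

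APOL6 went the other way. Its counts were 1488, 1429 and 1375 in untreated cells, 1790, 1824 and 2184 with PT2385 and 2367, 2884 and 2889 in KO. The groups were stepped, with every PT2385-treated library above every untreated one and every KO library above both. The level was 119 ± 5.04 CPM in untreated cells, 144 ± 8.15 with PT2385 and 194 ± 9.54 in KO (SD, n = 3).

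APOL3 was scarce, with 14, 15 and 16 reads in untreated cells, 32, 35 and 62 with PT2385 and 50, 31 and 66 in KO. The untreated libraries were the lowest, while those of the other groups overlapped. In CPM this was 1.25 ± 0.0830, 3.18 ± 1.001 and 3.51 ± 1.23 (SD, n = 3). APOL4 had 1 read in all 9 libraries together, in PT2385 replicate 3, and was removed by the filter on low counts, which 4 of the 5 members passed. APOL5, the remaining gene of the family in the cluster, likewise had 1 read. A count of 0 allows up to 3 reads, which is 0.204 to 0.252 CPM in these libraries and covers counting error only.

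**Figure D1:**
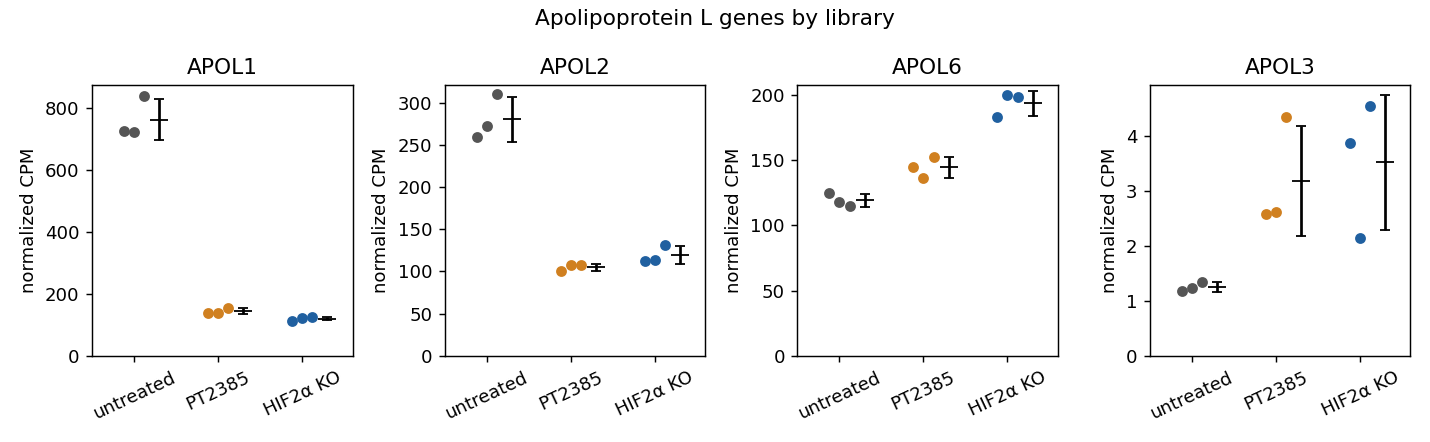
Normalized CPM (y axis, from 0, a different scale in each panel) of APOL1, APOL2, APOL6 and APOL3 in each library, by group. Points are the 3 libraries of a group and bars their mean ± SD. APOL1 and APOL2 were highest in untreated cells, APOL6 rose in steps to 194 CPM in KO, and APOL3 stayed under 5 CPM throughout.

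Per kilobase of exon the order of the levels in untreated cells was APOL1 (220 ± 19.2 CPM per kb), APOL2 (82.2 ± 7.84), APOL6 (11.8 ± 0.500) and APOL3 (0.211 ± 0.0141), each step larger than the spread (SD, n = 3). With PT2385 the order was kept, at 41.4 ± 2.87, 30.7 ± 1.23, 14.4 ± 0.809 and 0.538 ± 0.170. In KO the levels per kb of APOL2 (34.9 ± 3.15) and APOL1 (34.7 ± 1.80) did not differ beyond their spread, and APOL6 had 19.2 ± 0.948. With the longest transcript as gene length, APOL2 had 44.4 and APOL1 40.0 CPM per kb in KO. The near equality of APOL1 and APOL2 in KO thus depends on the length used. The ratio of APOL1 to APOL2 per kb was 2.68 ± 0.0708 in untreated cells, 1.35 ± 0.0750 with PT2385 and 0.997 ± 0.0696 in KO (SD, n = 3), with no overlap between any of the groups. APOL1 therefore lost more of its level than APOL2 in both conditions.

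The make-up of the family's reads changed accordingly. Together the members had 1163 ± 88.9 CPM in untreated cells, 396 ± 20.2 with PT2385 and 437 ± 23.4 in KO (SD, n = 3). APOL1 made up 65.5% ± 0.706 of them in untreated cells, 36.2% ± 0.651 with PT2385 and 27.5% ± 0.487 in KO. The share of APOL6 was 10.3% ± 1.10, 36.5% ± 1.07 and 44.4% ± 1.19 in the same order, so that APOL6 took the largest share of the reads in KO. APOL2 had mean shares between 24.1% and 27.3%.

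**Figure D2:**
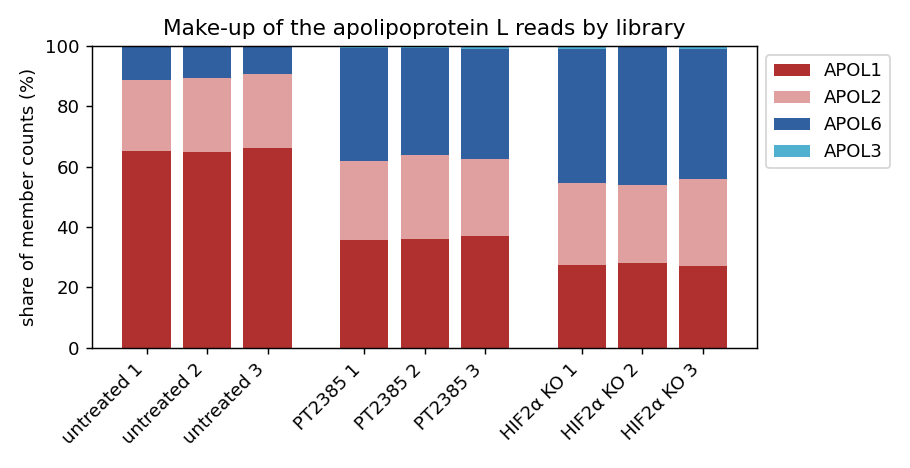
Share of the members' counts (y axis, percent, from 0 to 100) taken by each gene in each of the 9 libraries. APOL1 fell from 65.5% on average in untreated cells to 27.5% in KO, APOL6 grew from 10.3% to 44.4%, and APOL3 stayed near or under 1%.

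Whether the HIF2α antagonist changed these genes was asked in the comparison of PT2385-treated with untreated cells. A gene was called at an adjusted p under 0.05 (edgeR's quasi-likelihood F test, Benjamini-Hochberg over all tested genes). Of 15089 genes 7.70% were called, 4.62% lower and 3.08% higher (1162 genes in all, or 2305 if replicate numbers are modelled). The 4 tested members were all called, APOL1 and APOL2 lower and APOL3 and APOL6 higher, and nothing is read from this count since the members were chosen with it known. The log2 fold change was -2.41 for APOL1 (standard error 0.0759) and -1.42 for APOL2 (0.0742). APOL1 had the 32nd largest fall of the 697 genes called lower, and APOL2 the 122nd. That of APOL3 was 1.35 (0.287) and that of APOL6 0.27 (0.0662). Groups did not overlap in any of the 4, as in 26.0% of all tested genes.

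Leaving out any 1 library gave log2 fold changes from -2.47 to -2.34 for APOL1 and from -1.48 to -1.34 for APOL2. For APOL3 the range was 1.05, without PT2385 replicate 3, to 1.47, and for APOL6 it was 0.23 to 0.31. As a description of these fits, APOL6 lost its call without PT2385 replicate 2 (log2 fold change 0.31), untreated replicate 2 (0.27) or untreated replicate 3 (0.25). APOL3 lost its call without untreated replicate 1 (1.30) or 2 (1.34).

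In KO against untreated cells 30.1% of 15192 tested genes were called, 15.4% lower and 14.7% higher. The direction of the 4 tested members was the same as with PT2385, all 4 were called, and groups did not overlap in any of them, as in 43.8% of all tested genes. Both comparisons use the same untreated libraries. The log2 fold change was -2.65 for APOL1 (standard error 0.0755), -1.22 for APOL2 (0.0831), 1.5 for APOL3 (0.312) and 0.72 for APOL6 (0.0646). APOL1 was the 105th of the 2336 genes called lower by the size of its fall. As with PT2385, nothing is read from the members' calls.

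Knockout and antagonist were compared directly, and 18.8% of 15402 tested genes were called, 10.3% lower and 8.47% higher in KO. Here APOL6 was higher in KO (log2 fold change 0.42, standard error 0.0719), and its value ran from 0.39 to 0.47 over the alternatives. APOL1 was lower in KO by a small amount (-0.26, standard error 0.0758). Its call was lost with DESeq2 (-0.25) and without PT2385 replicate 2 (-0.28), PT2385 replicate 3 (-0.19), KO replicate 1 (-0.21) or KO replicate 2 (-0.27). APOL2 was not called (0.18, standard error 0.0799), although its 3 KO libraries, at 113, 113 and 132 CPM, lay above the 3 PT2385-treated ones, at 100.2, 107 and 108 CPM. APOL3 was not called either (0.13, standard error 0.304). Groups did not overlap for APOL1, APOL2 and APOL6, as in 35.4% of all tested genes.

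**Figure D3:**
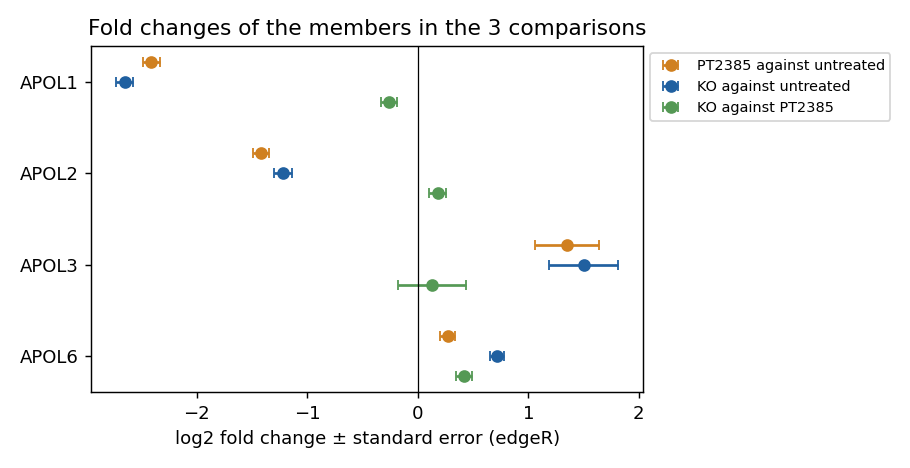
Log2 fold change (x axis, edgeR) of the 4 tested members in each comparison, where bars are ± 1 standard error. APOL1 and APOL2 lie left of 0 and APOL3 and APOL6 right of 0 in both comparisons with untreated cells. Between KO and PT2385-treated cells all 4 lie within 0.42 of 0.

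To see whether the surrounding genes changed too, the 17 protein-coding genes around the members were examined, which are RBFOX2 inside the span and the 8 nearest on each side. Of the 12 that passed the filter, 1 was called higher and 1 lower with PT2385 (5 called with the replicate number in the model). That is 8.33% each, against 3.08% of all genes called higher and 4.62% lower. FOXRED2, a flavoprotein of the endoplasmic reticulum, rose by a log2 fold change of 0.48 (adjusted p = 0.00433, edgeR). MYH9, which encodes a heavy chain of non-muscle myosin, lies on the minus strand with its 3′ end 13749 bases beyond APOL1, and it fell by 0.26 on the log2 scale (standard error 0.0461, adjusted p = 0.00380, edgeR), from 5564 ± 170 to 4646 ± 75.5 CPM (SD, n = 3). RBFOX2, a splicing regulator that lies between APOL6 and APOL3, had 188 ± 8.87 and 193 ± 10.5 CPM (log2 fold change 0.03, adjusted p = 0.841, edgeR). The median log2 fold change was 0.12 over these 12 genes and 0.00 over all tested genes.

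In KO 3 of the 12 neighbours were called higher and 2 lower, with a median log2 fold change of 0.14 against 0.00 over all tested genes. The largest rises called were those of IFT27 (log2 fold change 0.75), HMOX1 (0.72, with overlapping groups), which encodes a heme oxygenase, and TOM1 (0.59). The 2 that fell were MCM5, which encodes a subunit of the replicative helicase, by 0.53 on the log2 scale (adjusted p = 0.00118, edgeR) from 177 ± 7.42 to 121.0 ± 17.5 CPM (SD, n = 3), and MYH9 by 0.30 (adjusted p = 0.00296). RBFOX2 was not called (0.18, adjusted p = 0.0611, edgeR). Against PT2385-treated cells, 1 neighbour was called higher in KO and 1 lower (8.33% each, against 8.47% and 10.3% of all genes). These were TOM1 (0.46) and FOXRED2 (-0.53), while MYH9 (-0.06) and RBFOX2 (0.13) were not called. Without KO replicate 3 this comparison called 6 neighbours in place of 2. Changes of at least 1 on the log2 scale in either comparison with untreated cells occurred in APOL1, APOL2, APOL3 and, without being called, in RASD2 in KO (1.06, standard error 0.487). Nothing is read from this contrast of members and neighbours, since the members were chosen with their fold changes known and APOL3 rests on few reads.

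**Figure D4:**
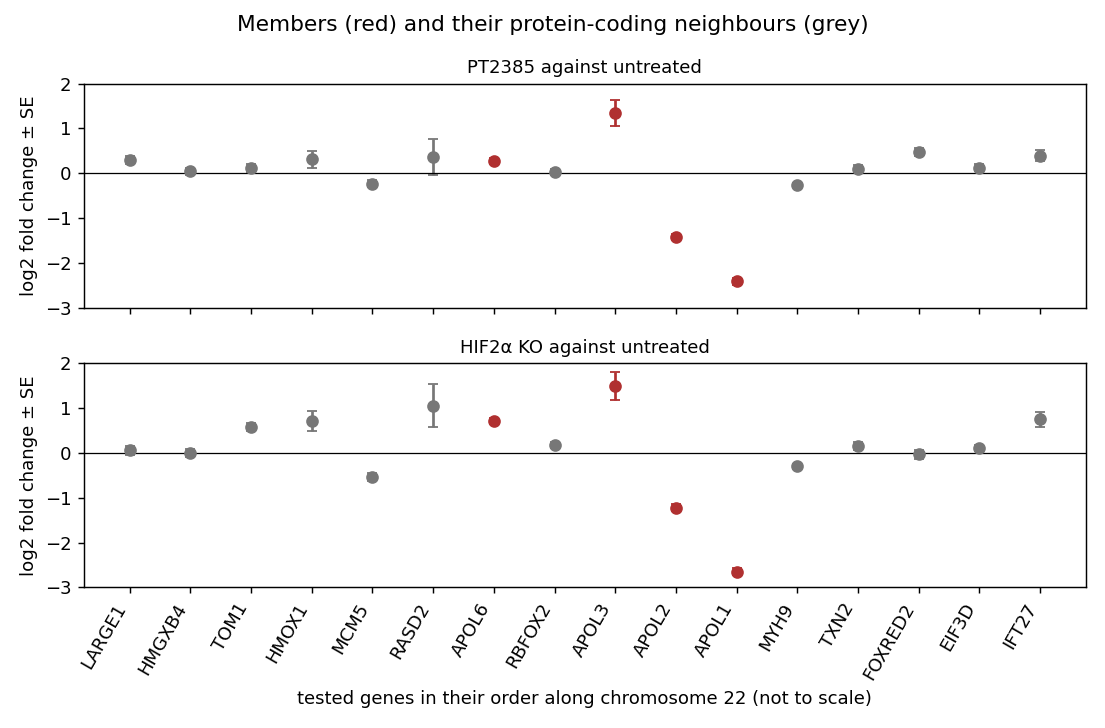
Log2 fold change ± standard error (y axis, edgeR) of the tested members (red) and their tested protein-coding neighbours (grey), ordered along chromosome 22 but not spaced to scale, for PT2385 (top) and KO (bottom) against untreated cells. APOL2 and APOL1 lie at -1.42 and -2.41 in the upper panel, while RBFOX2 and MYH9 on either side of the group from APOL3 to APOL1 lie at 0.03 and -0.26.

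Since interferon is a known inducer of the family, 50 interferon-induced genes and 17 genes of interferon signalling were listed. With PT2385, 5 of the 44 tested interferon-induced genes rose (11.4%, against 3.08% of all genes) and 0 fell, with a median log2 fold change of 0.21. The 3 largest rises called were those of GBP2 (0.87), PSMB9 (0.86) and IFIT1 (0.82), which encode a guanylate-binding protein, an immunoproteasome subunit and an antiviral RNA-binding protein. The count was 11 with the replicate number in the model, 1 without PT2385 replicate 2 or untreated replicate 2, and 3 without untreated replicate 1 or 3. Of the 17 signalling genes 1 was called higher and 1 lower (5.88% each, against 3.08% and 4.62% of all genes). The other 15 were not called. IFNAR2, a subunit of the type I interferon receptor, fell by 0.34 on the log2 scale (adjusted p = 0.0445, edgeR). The count of signalling genes called was 5 when replicate numbers were modelled, and 1 without PT2385 replicate 1 or any 1 untreated library.

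In KO 29 of the 48 tested interferon-induced genes rose (60.4%, against 14.7% of all genes) and 2 fell, with a median log2 fold change of 0.53. Both comparisons share the untreated libraries. OAS2, which encodes an antiviral oligoadenylate synthetase, had 3, 0 and 3 reads in untreated cells and 56, 48 and 20 in KO. OAS1 had 5, 6 and 2 reads against 85, 89 and 53, and MX2, which encodes an antiviral GTPase, had 2, 1 and 2 against 32, 23 and 21. Such counts leave the size of these rises uncertain, and no fold is given. OAS1, OAS2, MX2 and RSAD2 passed the filter here only through their KO reads, so nothing is read from their calls. They were not tested with PT2385, so the shares called with PT2385 and in KO are not over the same genes. They are also among the 29 that rose, so the share of 60.4% is partly set by the filter. When at least 10 counts were required in every library, 25 of 42 interferon-induced genes were called in either direction, against 31 of 48. Of all genes 4212 of 13730 were then called. These counts do not separate rises from falls. Of the 17 signalling genes, 4 rose (23.5%, against 14.7% of all genes), among them SOCS3 (log2 fold change 0.69), STAT2 (0.68) and JAK2 (0.50). IFNAR2 alone fell (5.88%, against 15.4% of all genes), by 0.45 (adjusted p = 0.00442, edgeR).

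Against PT2385-treated cells, 22 of 48 interferon-induced genes were higher in KO (45.8%, against 8.47% of all genes) and 1 was lower. RSAD2, which encodes viperin, had 3, 1 and 0 reads with PT2385 and 30, 22 and 14 in KO. Like OAS1, OAS2 and MX2, it passed the filter only through its KO reads, and nothing is read from these calls. All of these genes are among the 22, so the share of 45.8% is partly set by the filter. When at least 10 counts were required in every library, 18 of 43 interferon-induced genes were called in either direction, against 23 of 48. Of all genes 2552 of 13848 were then called, again in either direction. Of the signalling genes 1 was called higher in KO, STAT2 (0.75), and 1 lower (5.88% each, against 8.47% and 10.3% of all genes). Without PT2385 replicate 1 or KO replicate 3, 4 signalling genes were called in place of 2. Of the members, APOL6 was higher in KO than with PT2385, APOL3 did not pass the test, and APOL1 and APOL2 stood far below their untreated level in both conditions. Whether interferon had a part in the level of any member was not tested.

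**Figure D5:**
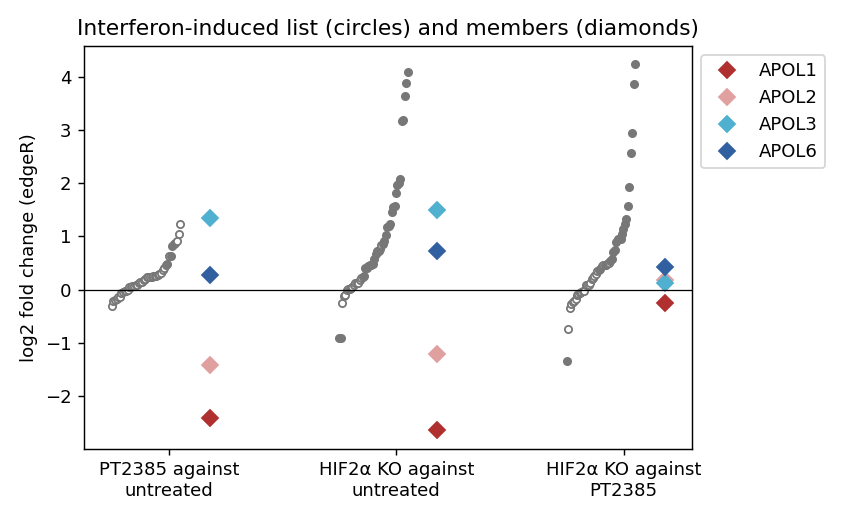
Log2 fold changes (y axis, edgeR) of the tested interferon-induced genes (circles, filled where called) and of the members (diamonds) in each comparison. In KO most circles lie above 0. The members lie at -2.65 (APOL1), -1.22 (APOL2), 1.5 (APOL3) and 0.72 (APOL6), and a link between them and the circles was not tested.

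The genes with the pattern most like that of each member were sought by Pearson's r of log2 CPM over the 9 libraries, among 10139 other genes with at least 100 counts on average. The 9 points share their 3 groups and their scaling, so r is a description and no p is given. APOL1 was most like ADM (r = 0.999), which encodes the peptide hormone adrenomedullin and had 64.1 ± 6.84 CPM in untreated cells, 9.13 ± 0.548 with PT2385 and 7.34 ± 0.800 in KO (SD, n = 3). ZNF395 (0.995), the insulin receptor substrate gene IRS2 (0.995), the ribonuclease gene RNASET2 (0.993) and the transcription factor gene POU5F1 (0.993) followed. ADM, IRS2, RNASET2 and POU5F1 are, like APOL1, among the genes of the study's heatmap. The choice depends on the measure, since by Spearman's rank correlation 0 of the 5 were among the 5 most like APOL1.

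APOL2 was most like KIAA0513 (r = 0.996), the lipid droplet gene PLIN2 (0.990) and the glucose transporter gene SLC2A1 (0.987). All 3 had, like APOL2, a lower mean level with PT2385 than in KO, which their choice by r over these same libraries favours. For SLC2A1 the means were 184 ± 16.0 and 259 ± 15.6 CPM (SD, n = 3). For PLIN2 they were 45.3 ± 3.19 and 51.1 ± 8.05 CPM, a difference within the spread in KO. The difference of APOL2 itself between KO and PT2385 was not called. APOL6 was most like ABLIM1 (0.990), SLC48A1 (0.986) and MDH2 (0.983), the last of which encodes mitochondrial malate dehydrogenase and had 186 ± 3.66, 213 ± 6.18 and 245 ± 8.81 CPM in untreated, PT2385-treated and KO cells. Between members, r was 0.974 for APOL1 and APOL2 and 0.740 for APOL3 and APOL6, and it was negative, from -0.868 to -0.706, for each pair across these 2 sets.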

How the data were processed

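RNA of 9 libraries was sequenced. According to the paper and the labels, the authors checked reads with FastQC, trimmed them with cutadapt, aligned them to GRCh38 with STAR and counted them with featureCounts, and deposited raw counts per gene. Versions, annotation release, strand and the treatment of multi-mapped reads are not given in the sources used here. All 9 columns were mapped to a sample by title (0 left over), and 58207 of 58735 identifiers had a symbol in GENCODE v44.

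Each pair of groups was fitted alone with edgeR 4.0.16 (R 4.3.3), using TMM scaling after filterByExpr (minimum 10 counts). The quasi-likelihood F test was adjusted by Benjamini-Hochberg over all tested genes. Standard errors are the log2 fold change divided by the root of F. The code was tested on simulated data. Members and gene lists were chosen with earlier results of these data known. Named are all members, genes inside their span, the 3 largest called changes per list and comparison (1 gene that this rule names is not reported here), and the genes most like APOL1 (5), APOL2 and APOL6 (3 each). RASD2, MCM5 and, where outside the largest changes, MYH9 were added after their values were seen. Of the RefSeq promoters (GRCh38.p14), 0 of the 5 members matched.

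Same-numbered untreated and PT2385 libraries deviated together from their group means (r = 0.453, 0.137 and 0.431 over 10140 genes), so these numbers were taken to pair the samples, from the data and not from the labels. The main fit had no term for the replicate number, so its calls, standard errors and adjusted p leave this pairing out. The pairing enters only in the replicate block, an alternative that called 2305 genes with PT2385 against 1162. In the pairs with KO, 4 of 6 values of r exceeded 0.1, and those numbers were not taken as pairs. The check as planned asked for r over 0.1 in all 9 pairs, and 7 met this. Taking the numbers of untreated and PT2385 libraries alone as pairs departs from that plan.

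The alternatives were DESeq2 1.42.0, scaling by RLE, by the upper quartile or by library size alone, omitting the filter, requiring at least 10 counts in every library, a replicate block, all 9 libraries in 1 model, an adjusted p under 0.01, leaving out each library, Spearman correlation, windows of 50 and 100 bases and the longest transcript as gene length.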

Additional observations from a re-analysis of the deposited data

How the results depend on the processing

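Of 168 log2 fold changes of members recomputed under alternatives, 157 kept their direction and side of the threshold, 10 lost a call, as named in the report, and 1 reversed, that of APOL3 between KO and PT2385 (-0.10 without KO replicate 3, and up to 0.44 without PT2385 replicate 3). With PT2385, 1162 genes were called against 2305 with the replicate block, 516 at an adjusted p under 0.01 and 574 to 1451 with a library left out (574 without PT2385 replicate 2, and 654, 581 and 728 without untreated replicates 1, 2 and 3). Members called were 2 at 0.01 and 2 to 4 with a library left out. Neighbours called were 5 with the replicate block. Interferon-induced genes called were 11 with the replicate block, 2 with all 9 libraries in 1 model, 8 with library-size or upper-quartile scaling, 12 without the filter, 0 at 0.01 and 1 to 7 with a library left out. Signalling genes called were 5 with the replicate block, 1 with the single model, either of these scalings or 0.01, and 1 to 3 with a library left out. Other apolipoproteins called were 0 at 0.01 and 0 to 1 with a library left out.

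In KO against untreated cells 2788 genes were called at 0.01, against 4566. Signalling genes called were 8 with the replicate block, and other apolipoproteins 1 with DESeq2 or without the filter, 0 at 0.01 and 0 to 2 with a library left out. Between KO and PT2385, 1657 genes were called at 0.01 and 1836 to 3190 with a library left out, against 2897. Members called were 1 with DESeq2 or at 0.01 and 1 to 2 with a library left out. Neighbours called were 4 with the replicate block and 2 to 6 with a library left out. Signalling genes called were 4 without the filter or with the replicate block and 2 to 4 with a library left out. The 1836 genes were those without PT2385 replicate 2. The replicate block changed the call of no member. The cause was not tested. APOL4, at 1 read, and APOL3, at 14 to 66, are limited by depth.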

Other observations

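Genes of the other apolipoprotein families were scarcely expressed, and of 17 listed only 3 passed the filter, APOO, APOOL and CLU. CLU, which encodes the secreted chaperone clusterin, had 89, 92 and 69 reads in untreated cells, 149, 156 and 133 with PT2385 and 69, 62 and 49 in KO. It was higher with PT2385 (log2 fold change 0.66, adjusted p = 0.0249, edgeR) and lower in KO (-0.67, adjusted p = 0.0265), and KO lay below PT2385-treated cells by 1.35 on the log2 scale (adjusted p = 6.55e-04). Without KO replicate 2, untreated replicate 1 or untreated replicate 2, 0 genes of the list were called in KO, and of the fits of PT2385 against untreated cells with a library left out, only that without PT2385 replicate 3 called 1. APOOL, a component of the mitochondrial inner membrane, fell in KO by 0.25 on the log2 scale (adjusted p = 0.0285). APOLD1, a distant relative of the family on another chromosome, had 14.8 ± 3.33 CPM in untreated cells, 17.7 ± 2.28 with PT2385 and 13.4 ± 0.908 in KO (SD, n = 3), and was called in neither comparison with untreated cells (adjusted p = 0.389 and 0.584, edgeR) but was lower in KO than with PT2385 (log2 fold change -0.40, adjusted p = 0.0497).

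The genes with the pattern most opposite to APOL1 over the 9 libraries were the aldo-keto reductase gene AKR1B10 (r = -0.974), LRP12 (-0.972), the adhesion molecule gene VCAM1 (-0.969), SHISA5 (-0.968) and the cytokine gene IL18 (-0.967). IL18 had 2.72 ± 0.257 CPM in untreated cells, 10.4 ± 1.91 with PT2385 and 13.3 ± 2.97 in KO (SD, n = 3).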
